A study of Mus musculus with 2 samples.

Results

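The CD8 co-receptor is built from an alpha chain, encoded by Cd8a, and a beta chain, encoded by Cd8b1. Both genes were taken by their symbols from the gene table of the series, 2 of 32285 genes. They were chosen with earlier results of these libraries known, their levels in NC and HC included, so the values below are a description and not a test. The study measured transcripts cell by cell in CD8+ T cells from mouse lymph node and concerned electrical stimulation through the matrix. There were 2 libraries, labelled NC and HC, with 1 in each group. The labels neither spell out the abbreviations nor say which library was stimulated, and the sources used here name no strain, age, dose or duration. With 1 library per group no test between groups could be made. Every interval given is at 95% and covers counting error only.

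On cytotoxic T cells the co-receptor is mostly an alpha-beta heterodimer that binds the non-polymorphic part of MHC class I while the T cell receptor reads the peptide. The alpha tail carries the cysteine motif that holds the kinase Lck, and the beta chain improves co-receptor function. The alpha chain can also pair with itself, and the beta chain needs alpha to reach the surface. Alpha homodimers occur on some intestinal lymphocytes and on cross-presenting dendritic cells, and activated T cells are known to change their co-receptor levels.

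The genes are neighbours on mouse chromosome 6 and are read in the same direction. In GENCODE vM21 on GRCm38, the assembly also called mm10, Cd8b1 (ENSMUSG00000053044) spans chr6:71322788-71337494 and Cd8a (ENSMUSG00000053977) spans chr6:71373427-71379173, both on the plus strand. The gap between them is 35932 bases long. Cd8a-201, the longer coding transcript of Cd8a, has 5 exons, and Cd8a-202 lacks the fourth of them. That exon is shown because it separates the forms of the chain that do and do not carry the Lck-binding cysteines. Its 31 bases at chr6:71375888-71375918, from the GENCODE transcript, read 5′ to 3′ with the 2 in-frame cysteine codons in capitals:
Cd8a exon 4: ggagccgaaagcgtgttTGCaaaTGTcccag
The terminal exons of the transcripts overlap, with 3′ untranslated parts of 2261 bases in Cd8a-201 and 2309 bases in Cd8a-202. A count of 3′ tags per gene therefore does not separate them, and the Cd8a values below are for all forms together. The annotated Cd8b1 transcript has a 3′ untranslated part of 775 bases.

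The 250 bases before the RefSeq start of Cd8a (GRCm38.p6, chr6:71373177-71373426, plus strand) are shown because Cd8a was the chain that differed more between the libraries. Capitals mark the matches to the motifs searched on both strands:
Cd8a promoter: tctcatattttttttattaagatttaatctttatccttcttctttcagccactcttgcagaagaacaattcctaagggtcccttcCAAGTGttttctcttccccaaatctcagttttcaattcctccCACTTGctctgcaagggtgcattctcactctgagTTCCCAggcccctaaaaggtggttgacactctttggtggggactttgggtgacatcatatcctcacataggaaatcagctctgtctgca
The first pair of matches are E-boxes (CANNTG), which start 165 and 123 bases before the gene and occur in 66.2% of the 32851 RefSeq windows of that length. The last is the core bound by Ikaros (TGGGAA, here on the other strand), found in 21.6% of windows. The letters TGTGGT for RUNX, CTTTGA for TCF and LEF, AGATAA for GATA and ACGTG for the hypoxia response element were not in this window, nor were TGACG for CREB, TGANTCA for AP-1 and ACCGGAA for ETS factors. They occur in 14.0%, 13.8%, 9.99%, 16.6%, 17.8%, 6.75% and 2.89% of windows, in that order.

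Other transcripts of the region gave little signal. Gm44175, a long non-coding RNA on the minus strand between the chains, had 13.8 CPM (UMIs per 1000000 UMIs, where a UMI is a barcode that marks a captured RNA molecule) in the NC library and 11.9 in the HC library. The log2 ratio for HC over NC came to -0.21 (-0.32 to -0.11). Gm44174, which ends just before Cd8a, had 1 UMI in NC and 0 in HC. Outside the pair, Krcc1 was at 65.3 and 59.9 CPM and Rmnd5a, a ubiquitin ligase subunit, at 32.1 and 32.6 CPM. The log2 ratio of Krcc1 was -0.12 (-0.17 to -0.08) and that of Rmnd5a 0.02 (-0.04 to 0.09). The genes around the chains were named after their values were seen.

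**Figure D1:**
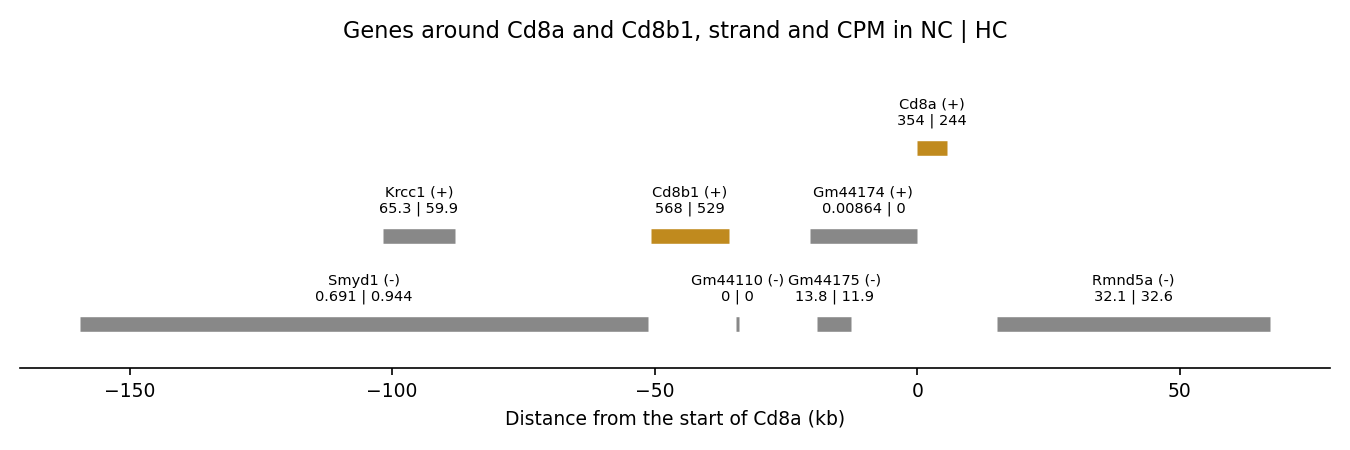
Gene bodies around Cd8a and Cd8b1 plotted by distance from the start of Cd8a in kilobases, with each gene's strand and its CPM in NC and HC. Cd8b1 (568 and 529 CPM) and Cd8a (354 and 244 CPM) stand well above their neighbours, of which Krcc1 is the highest at 65.3 and 59.9 CPM.

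The comparison rested on 13641 NC cells (median 6898 UMIs) and 13617 HC cells (median 7425 UMIs). These barcodes had at least 500 genes, at least 1000 UMIs and at most 10% mitochondrially encoded UMIs. The libraries shared 49 kept barcodes, and doublets were not removed. T cell markers were found in nearly all cells: 13609 NC and 13597 HC cells had 3 or more of Cd3e, Cd3d, Cd3g, Trac, Trbc2 and Lck. Cd4 had 1 UMI in NC and 2 in HC. No cell of either library had 3 or more of 6 markers of cross-presenting dendritic cells, which carry Cd8a without Cd8b1. Their summed level was 3.33 CPM in NC and 2.17 CPM in HC, with Clec9a at 0 in both. B cell markers summed to 52.8 CPM in NC, with all 8 detected, and to 21.3 CPM in HC, with Pax5 at 0, and 24 NC cells and 1 HC cell had 3 or more of them. Macrophage markers had 420 UMIs in NC, of which Lyz2 gave 416, with C1qa at 0. In HC they had 1 UMI, with C1qa, Adgre1 and Lyz2 at 0. No cell of either library had 3 or more of these 4 markers. Among the B cell markers Igkc had 2406 UMIs in NC and 228 in HC, and Cd74 had 1810 and 534. Cd79b went the other way, with 1442 UMIs in NC and 1596 in HC. Markers of CD4 T cells had 497 and 652 UMIs, mostly from Zbtb7b (452 and 622). Natural killer markers had 185 and 136 UMIs, with Ncr1 at 0 in NC. Markers of gamma-delta T cells had 14858 and 12411 UMIs, nearly all from Trdc (14481 and 12151). The part of these cells in the CD8 values was not tested. The labels name CD8+ cells, so a selection on CD8 may set part of the shares of cells with CD8 transcripts given below.

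Cd8a was lower in the HC library and Cd8b1 was nearly level. Cd8a gave 40979 UMIs in NC, or 354 CPM (350 to 357), and 27899 UMIs in HC, or 244 CPM (241 to 247). HC over NC, the log2 ratio of Cd8a was -0.54 (-0.56 to -0.52), which is 1.45-fold higher in NC (1.43 to 1.47). Cd8b1 gave 65745 UMIs in NC, or 568 CPM (563 to 572), and 60501 UMIs in HC, or 529 CPM (525 to 533). Its log2 ratio was -0.10 (-0.12 to -0.09). Neither chain reached 1.5-fold, a size passed by 1.47% of 8704 genes towards NC and by 1.93% towards HC. The median log2 ratio of those genes was -0.03. Of them, 2.06% had a lower ratio than Cd8a and 33.5% a lower ratio than Cd8b1. By CPM, Cd8a ranked 302 among the genes detected in NC and 440 in HC, and Cd8b1 ranked 195 and 209. The ranks compare tags per gene, whose capture can differ between transcripts.

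Per cell, Cd8a was found in fewer HC cells and with fewer tags. Cells were thinned at random to 4000 UMIs each, leaving out 1620 NC and 1292 HC cells that were shallower. At that depth Cd8a had a UMI in 71.2% of cells in NC (70.4 to 72.0) and in 59.6% in HC (58.8 to 60.5). Without thinning the shares were 84.9% and 78.6%. Cells with 5 to 9 Cd8a UMIs made up 3.58% of NC and 0.811% of HC. For Cd8b1 the thinned shares were 86.6% in NC (86.0 to 87.2) and 84.9% in HC (84.2 to 85.5), and the unthinned ones 95.1% and 95.3%. The variance of the thinned counts over their mean, which is close to 1 for random counting, was 1.37 in NC and 1.19 in HC for Cd8a, and 1.48 and 1.42 for Cd8b1.

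**Figure D2:**
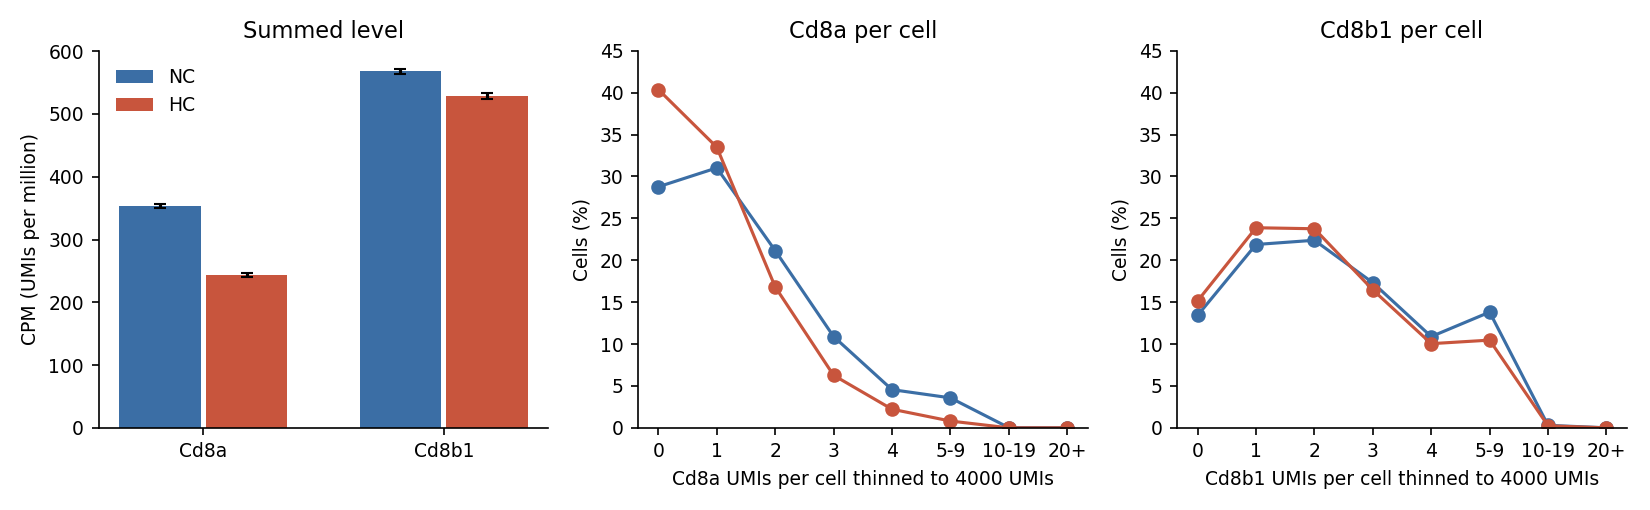
Left, CPM of Cd8a and Cd8b1 summed over kept cells, with bars for NC and HC and 95% Poisson intervals. Middle and right, the percentage of cells with each number of UMIs after thinning to 4000 UMIs: 40.4% of HC cells had no Cd8a against 28.8% of NC cells, while the Cd8b1 lines lie close together.

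Transcripts of both chains were found together more often in NC. After thinning to 4000 UMIs, and leaving out cells with 3 or more B cell markers, 62.2% in NC (61.3 to 63.0) and 51.2% in HC (50.3 to 52.1) carried both. Cd8b1 alone was found in 24.4% of NC and 33.6% of HC cells, and Cd8a alone in 9.05% and 8.41%. Cells with neither made up 4.36% of NC and 6.74% of HC. The share with both was close to the product of the single shares, 61.7% in NC and 50.6% in HC. Without thinning, cells with both made up 81.6% of NC and 75.6% of HC. A cell type that lacks CD8 was too rare to set a background. Of the 24 NC cells with 3 or more B cell markers, 19 had both chains and 5 had neither. Their median depth was 13515.5 UMIs, against 6890 in the other NC cells. At 2000 UMIs, 33.3% of them (15.6 to 55.3) had Cd8a, against 48.7% of the other NC cells (47.9 to 49.6). Whether these barcodes held more than 1 cell was not tested.

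Within a cell the counts of the chains were only weakly correlated. In NC cells thinned to 4000 UMIs, mean Cd8b1 went from 2.25 UMIs in cells with no Cd8a to 2.96 UMIs in cells with 4 or more. In HC cells the same means were 2.09 and 2.70 UMIs. Pearson's r between the chains was 0.12 over 12021 NC cells and 0.09 over 12325 HC cells. Cells of a library share its preparation and the counts are sparse, so these values only describe the libraries. Counting error lowers r in such counts, and how tightly the chains go together was not tested.

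The alpha-to-beta ratio was lower in HC. It is given as Cd8a UMIs per Cd8b1 UMI, which does not depend on library scaling but is not a ratio of proteins, nor of molecules where capture differs. Over all kept cells it was 0.623 in NC (0.616 to 0.631) and 0.461 in HC (0.455 to 0.468). The log2 difference, HC minus NC, was -0.43 (-0.46 to -0.41).

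The ratio of single cells was followed where a cell had 10 or more CD8 UMIs, which held for 3957 NC and 2638 HC cells. These were deeper than most, with medians of 10989 and 11322.5 UMIs. They were also chosen by the sum of both chains, and their pooled alpha-to-beta ratio was above that of all kept cells. It was 0.679 against 0.623 in NC and 0.480 against 0.461 in HC. The values below hold for these cells only. The alpha share of a cell's CD8 UMIs had a median of 38.9% in NC, with quartiles of 27.3 and 50%, and of 30% in HC, with quartiles of 20 and 41.7%. Alpha outnumbered beta in 963 of these NC cells (24.3%) and in 290 of the HC cells (10.99%). The standard deviation over cells was 17.8 percentage points in NC and 16.2 in HC, and binomial counting around the pooled share alone would give 13.4 and 13.2. The part beyond counting came to 11.6 points in NC and 9.4 in HC. Cells thus differed in their ratio by more than counting gives in both libraries, and this part still holds the differences with depth described next.

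**Figure D3:**
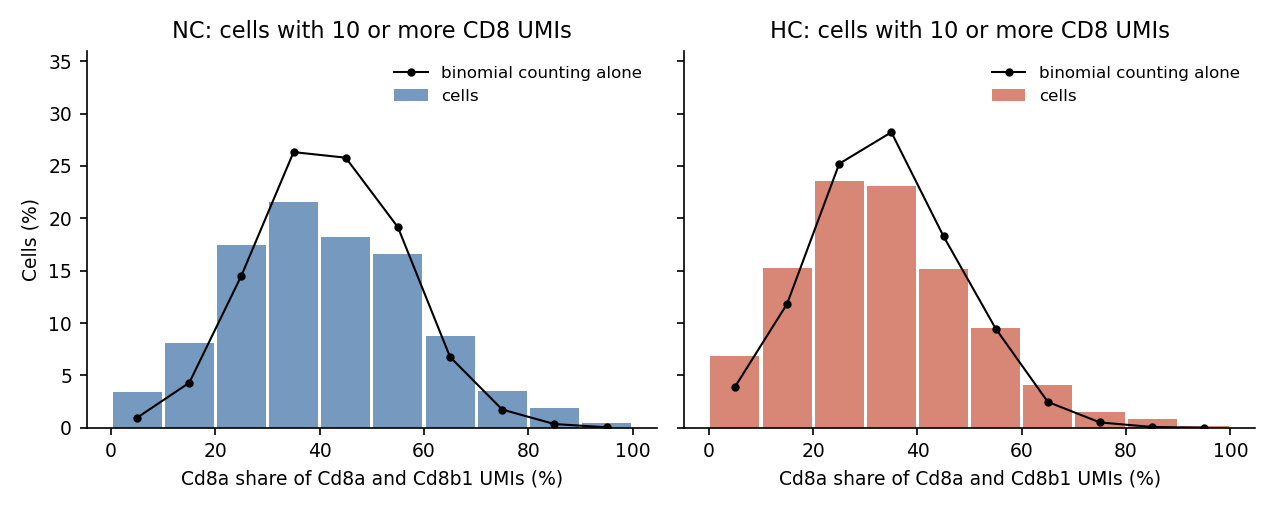
Percentage of cells (y axis) by the Cd8a share of their Cd8a and Cd8b1 UMIs in steps of 10 points (x axis), for cells with 10 or more such UMIs in NC (left) and HC (right). Black points show binomial counting around each library's pooled share: the cells spread wider on both sides. More alpha than beta was found in 963 of 3957 NC cells (24.3%) and in 290 of 2638 HC cells (10.99%).

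From 4000 to 8000 UMIs per cell up to 16000 to 32000, Cd8b1 fell as a share of all UMIs by more than Cd8a, and the ratio was higher in the deeper cells. In NC, Cd8b1 stood at 694 CPM in cells of 4000 to 8000 UMIs (685 to 702) and 424 CPM in cells of 16000 to 32000 UMIs (415 to 432). In HC it stood at 624 CPM (616 to 632) and 432 CPM (421 to 442). The log2 difference between those depths was -0.71 in NC and -0.53 in HC, so Cd8b1 passed 1.5-fold in NC alone, where 18.0% of genes were at least 1.5-fold higher and 8.0% at least 1.5-fold lower in the deep cells. In HC these shares were 10.2% and 4.02%. Whether the libraries differed in this was not tested. Cd8b1 tags per cell still rose with depth, 2.14-fold in NC and 2.30-fold in HC, while all UMIs per cell rose 3.51-fold and 3.32-fold. Cd8a went from 371 to 332 CPM in NC and from 262 to 235 CPM in HC, a log2 difference of -0.16 in both. Neither chain moved one way over all bins. Cd8b1 in NC was at 606 and 678 CPM in the bins from 1000 and 2000 UMIs, below its 694 CPM, and in HC at 502 and 704 CPM. Above 32000 UMIs NC had 466 CPM and HC 450 CPM of it. Cd8a in HC was at 292 CPM (276 to 309) at 2000 to 4000 UMIs and at 229 CPM (226 to 233) at 8000 to 16000, a wider gap than between the bins compared above.

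The alpha-to-beta ratio of NC cells was 0.549 (0.519 to 0.581) at 2000 to 4000 UMIs, 0.536 at 4000 to 8000, 0.658 at 8000 to 16000 and 0.782 (0.759 to 0.806) at 16000 to 32000. In HC the same bins gave 0.415 (0.388 to 0.444), 0.421, 0.478 and 0.546 (0.523 to 0.569). HC was lower than NC in each of these bins and its intervals did not overlap those of NC. Above 32000 UMIs, 51 NC cells gave 0.789 and 39 HC cells 0.570. Below 2000 UMIs the 133 NC and 94 HC cells gave 0.488 (0.353 to 0.668) and 0.630 (0.426 to 0.924), which the depth could not tell apart.

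At matched depth Cd8a differed between the libraries and Cd8b1 did so little. The log2 ratio of Cd8a, HC over NC, was -0.35 at 2000 to 4000 UMIs, -0.50 at 4000 to 8000, -0.60 at 8000 to 16000 and -0.49 at 16000 to 32000. That of Cd8b1 was 0.05 (-0.02 to 0.13), -0.15, -0.14 and 0.03 (-0.02 to 0.07). Mki67 and Gzmb were also found in more cells of the deeper bins: Mki67 had a UMI in 34.9% of cells in NC and 54.5% in HC at 4000 to 8000 UMIs, and in 95.8% and 98.9% at 16000 to 32000. Gzmb went from 41.0% to 82.9% in NC and from 55.7% to 95.6% in HC. These shares are unthinned, and such shares rise with depth through counting. Between the same bins the CPM also rose. Mki67 went from 151 to 500 CPM in NC and from 373 to 592 CPM in HC. Gzmb went from 147 to 354 CPM and from 246 to 600 CPM, and Bnip3 from 7.92 to 11.7 CPM and from 34.8 to 56.7 CPM. The part of these genes in the depth values of CD8 was not tested.

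**Figure D4:**
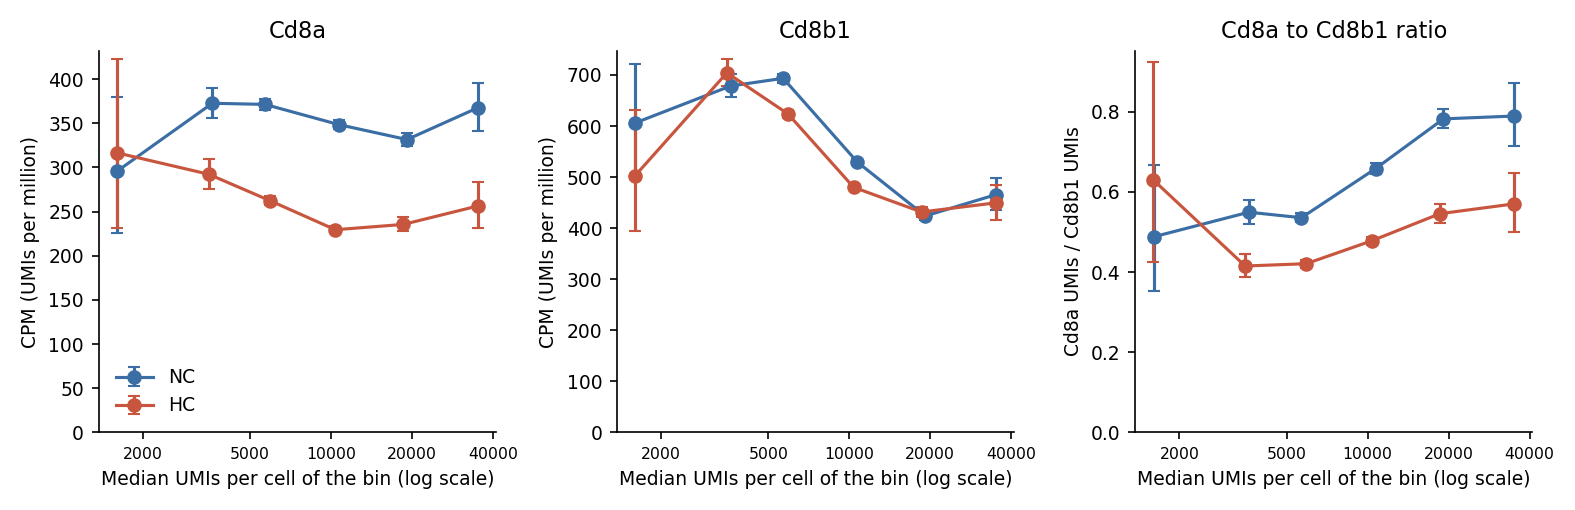
CPM of Cd8a (left), CPM of Cd8b1 (middle) and Cd8a UMIs per Cd8b1 UMI (right) against the median UMIs per cell of 6 depth bins on a log axis, with 95% counting intervals for NC and HC. From 2000 UMIs upward the HC line lies below NC for Cd8a and for the ratio, and both Cd8b1 lines rise at first, to 694 CPM in NC and 704 CPM in HC, reach 424 and 432 CPM at 16000 to 32000 UMIs and are slightly higher in the last bin.

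Other parts of the receptor fell less than Cd8b1 between the same depths. Cd3d, a signalling chain, had a log2 difference of -0.40 in NC and -0.29 in HC, and Trbc2, a beta chain constant region, of -0.38 and -0.28. Cd3e was at -0.17 and -0.15 and Trac, the alpha chain constant region, at -0.18 and -0.16, values like those of Cd8a. B2m, the light chain of the MHC class I ligand, was at -0.59 and -0.37. Of all genes compared, 5.22% in NC and 5.11% in HC had a lower log2 difference than Cd8b1, and 29.0% and 23.8% a lower one than Cd8a.

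With depths pooled, both chains were lower in cells with Mki67, which marks dividing cells, in both libraries. For this and the next comparisons cells were thinned to 2000 UMIs, leaving out 133 NC and 94 HC cells, and both the class and the CPM were read from the thinned counts. Mki67 was found in 4263 of the NC cells (31.6%) and 6281 of the HC cells (46.4%). Cd8a stood at 327 CPM with and 373 CPM without Mki67 in NC, a log2 ratio of -0.19 (-0.25 to -0.13). In HC it stood at 235 and 264 CPM, a log2 ratio of -0.17 (-0.24 to -0.10). Cd8b1 stood at 549 and 661 CPM in NC and at 523 and 612 CPM in HC, with log2 ratios of -0.27 (-0.32 to -0.22) and -0.23 (-0.27 to -0.18). Neither chain passed 1.5-fold, while 3.05% of genes in NC and 1.73% in HC were at least 1.5-fold lower with Mki67 and 8.06% and 7.90% higher. The alpha-to-beta ratio was 0.595 with and 0.564 without Mki67 in NC and 0.449 and 0.432 in HC, log2 differences whose intervals held 0. That call did not last at greater depth: with minus without Mki67, the NC difference was 0.06 (0.01 to 0.12) at 4000 UMIs, and without thinning the differences were 0.17 (0.13 to 0.20) in NC and 0.09 (0.04 to 0.14) in HC. The classes were not matched for their depth before thinning here. At like depth the sign of the difference was not steady, as given below.

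The number of Mki67 tags gave no even gradient. NC cells with 0, 1, 2 to 3 and 4 or more Mki67 UMIs had Cd8a at 373, 334, 332 and 257 CPM and Cd8b1 at 661, 561, 527 and 561 CPM. Their alpha-to-beta ratios were 0.564, 0.596, 0.629 and 0.459, the last over 369 cells (0.384 to 0.546). In HC the ratios were 0.432, 0.452, 0.456 and 0.415. Cells with Mki67 were deeper before thinning, with medians of 9563 against 6330 UMIs in NC and 8804 against 6270 in HC. In all UMIs of cells classed after thinning, Cd8b1 at 4000 to 8000 UMIs was at 626 CPM with and 709 CPM without Mki67 in NC, and at 585 and 647 CPM in HC. At 8000 to 16000 UMIs it was at 512 and 544 CPM in NC, and at 480 and 481 CPM in HC. Cd8a at 8000 to 16000 UMIs was at 314 CPM with and 378 CPM without Mki67 in NC, and at 222 and 242 CPM in HC. At 2000 to 4000 UMIs Cd8a was at 373 CPM in both classes in NC. In HC it was then higher with Mki67, at 306 CPM against 288 CPM without. In the same counts the ratio at 2000 to 4000 UMIs was 0.599 with and 0.532 without Mki67 in NC, and 0.499 and 0.392 in HC. At 4000 to 8000 UMIs it was 0.543 and 0.534 in NC, and 0.416 and 0.423 in HC. At 8000 to 16000 UMIs it was 0.614 and 0.694 in NC, and 0.462 and 0.504 in HC. At 16000 to 32000 UMIs it was 0.762 and 0.806 in NC, and 0.544 and 0.549 in HC. The rise of the ratio with depth was also present in cells without Mki67, from 0.534 at 4000 to 8000 UMIs to 0.806 at 16000 to 32000 in NC, and from 0.423 to 0.549 in HC.

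Gzmb encodes granzyme B, the protease that killer cells deliver to targets. Both chains were lower in HC cells with Gzmb. In NC the intervals held 0 at 2000 UMIs, but that of Cd8b1 lay below 0 at 4000 UMIs, at -0.058 (-0.09 to -0.02). The difference between the libraries was not tested. Gzmb was found in 3210 NC cells (23.8%) and 4908 HC cells (36.3%) at 2000 UMIs. Cd8a stood at 367 CPM with and 355 CPM without Gzmb in NC, a log2 ratio of 0.05 (-0.02 to 0.12), and at 235 and 260 CPM in HC, a log2 ratio of -0.15 (-0.22 to -0.07). Cd8b1 stood at 615 and 629 CPM in NC, a log2 ratio of -0.03 (-0.08 to 0.02), and at 525 and 597 CPM in HC, a log2 ratio of -0.18 (-0.23 to -0.14). Neither chain passed 1.5-fold, while 1.40% of genes in NC and 0.955% in HC were at least 1.5-fold lower with Gzmb and 1.21% and 1.36% higher. The median depth before thinning was 7299 with and 6832.5 UMIs without Gzmb in NC, and 8480 and 6910 in HC. In all UMIs of HC cells of like depth, Cd8b1 was at 732 CPM with and 697 CPM without Gzmb at 2000 to 4000 UMIs, at 601 and 634 CPM at 4000 to 8000, at 459 and 496 CPM at 8000 to 16000 and at 427 and 438 CPM at 16000 to 32000. The direction for Cd8b1 thus turned in the shallowest of these bins. Cd8a was lower with Gzmb in each of them. With and without Gzmb it was at 265 and 299 CPM, 253 and 267 CPM, 224 and 234 CPM, and 228 and 245 CPM.

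Among cells grouped by their number of Gzmb tags, those with the most had the highest alpha-to-beta ratio in each library. With 4 or more of 2000 UMIs from Gzmb, 184 NC cells gave a ratio of 0.875 (0.700 to 1.09) and 423 HC cells a ratio of 0.561 (0.469 to 0.669). Without Gzmb the ratios were 0.565 (0.549 to 0.581) and 0.435 (0.420 to 0.451). Cd8b1 was lower in these cells, at 478 CPM in NC and 417 in HC. Cd8a was at 418 CPM in NC and 234 in HC. Cells with 1 Gzmb UMI gave ratios of 0.574 in NC and 0.440 in HC, close to those without it. These groups were not matched for depth, and the part of depth was not tested. In all UMIs of NC cells with and without Gzmb, the ratio was 0.544 and 0.533 at 4000 to 8000 UMIs. It was 0.652 and 0.660 at 8000 to 16000 and 0.819 and 0.762 at 16000 to 32000. In HC the same bins gave 0.420 and 0.421, 0.487 and 0.472, and 0.534 and 0.560. The direction was thus not steady.

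Bnip3, a mitophagy receptor that cells induce in low oxygen, was found in 231 NC cells (1.71%) and 932 HC cells (6.89%) at 2000 UMIs. In HC, Cd8b1 stood at 498 CPM with and 576 CPM without Bnip3, a log2 ratio of -0.21 (-0.31 to -0.11), while Cd8a stood at 252 and 251 CPM. The alpha-to-beta ratio there was 0.505 (0.451 to 0.565) with and 0.435 (0.422 to 0.448) without Bnip3, a log2 difference of 0.21 (0.05 to 0.38). In NC, Cd8a stood at 333 and 359 CPM and Cd8b1 at 595 and 626 CPM, log2 ratios of -0.11 (-0.34 to 0.12) and -0.07 (-0.25 to 0.10), so no difference was detectable in so few cells. Neither chain passed 1.5-fold, while 11.6% of genes in NC and 4.48% in HC were at least 1.5-fold lower with Bnip3 and 10.9% and 4.34% higher. HC cells with Bnip3 were deeper, with a median of 8481.5 against 7388 UMIs. Among HC cells of like depth the ratio was 0.476 with and 0.418 without Bnip3 at 4000 to 8000 UMIs, 0.506 and 0.476 at 8000 to 16000 and 0.586 and 0.541 at 16000 to 32000. At 2000 to 4000 UMIs, with 42 cells with Bnip3, it was 0.420 and 0.415.

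Cells were then divided into 8 classes by the presence of Mki67, Gzmb and Bnip3 together. The 4 classes without Bnip3 held most cells and gave HC over NC log2 ratios of Cd8a from -0.62 to -0.39, with intervals below 0. In the same classes the log2 ratios of Cd8b1 ran from -0.21 to 0.01. Cells with none of the 3 genes, 7050 in NC and 4457 in HC, had Cd8a at 370 CPM (360 to 381) and 270 CPM (260 to 281) and Cd8b1 at 665 CPM and 646 CPM. Their alpha-to-beta ratio was 0.557 in NC (0.538 to 0.576) and 0.419 in HC (0.399 to 0.439). The ratio of the 4 classes without Bnip3 ran from 0.557 to 0.602 in NC and from 0.419 to 0.449 in HC, so these ranges did not overlap. The classes with Bnip3 were small in NC, with 21 to 113 cells, and the intervals of their differences in the ratio all held 0. With Mki67 and Bnip3, the log2 ratio of Cd8a was -0.65 (-1.16 to -0.13) without Gzmb and -0.89 (-1.65 to -0.04) with it. With Gzmb and Bnip3 but not Mki67 it was -0.42 (-1.10 to 0.33). The class with Bnip3 alone was the exception in sign, with a log2 ratio of Cd8a of 0.04 (-0.38 to 0.47) and a log2 difference in the ratio of 0.33 (-0.17 to 0.83).

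**Figure D5:**
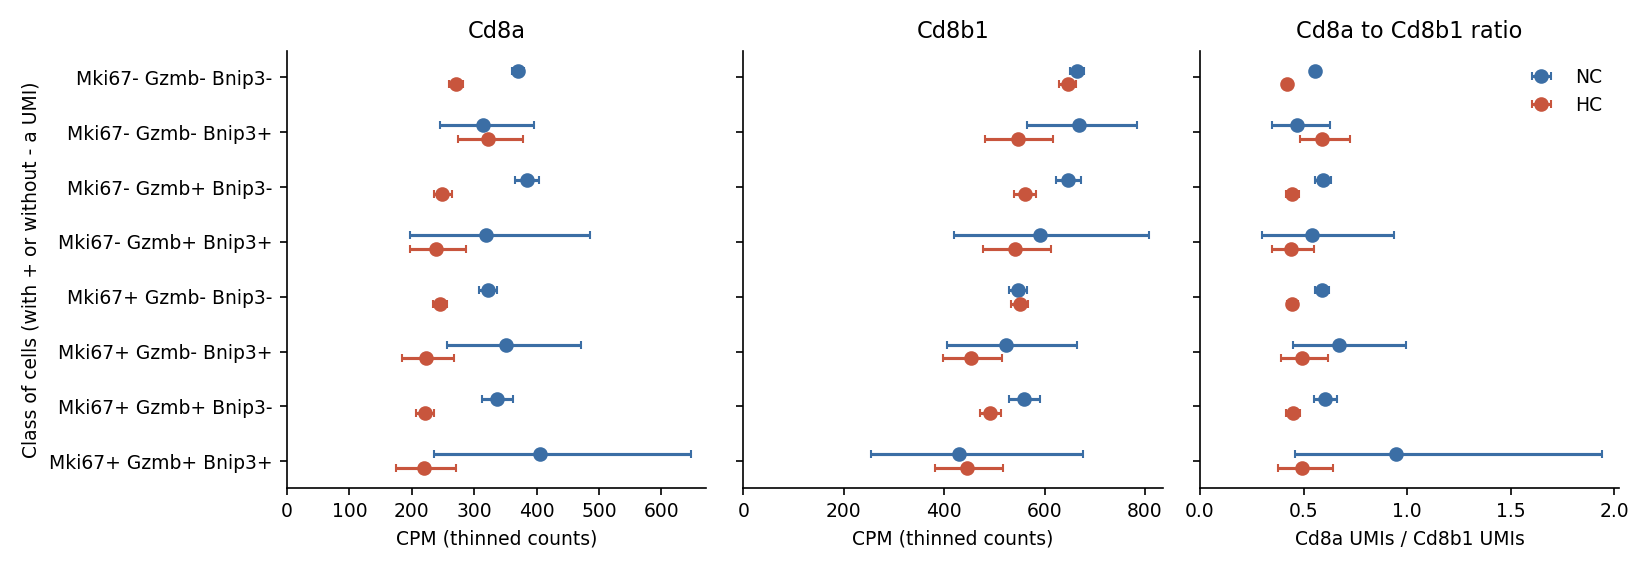
CPM of Cd8a and Cd8b1 from thinned counts and Cd8a UMIs per Cd8b1 UMI (x axes) in the 8 classes of cells with (+) or without (-) Mki67, Gzmb and Bnip3 (y axis), with 95% counting intervals. In the 4 classes without Bnip3 the NC and HC intervals of Cd8a and of the ratio stand apart.

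Cells with a single chain were mostly cells with beta. In NC, 515 cells (3.78%) had 5 or more Cd8b1 UMIs and no Cd8a, and 45 cells (0.330%) had 5 or more Cd8a UMIs and no Cd8b1. In HC these were 736 cells (5.41%) and 15 cells (0.110%). Of these cells with Cd8a tags alone, Trac was found in 91.1% in NC and 93.3% in HC, and none had Cd4, 3 B cell markers or 3 dendritic cell markers. Among cells of 8000 UMIs or more, 19 of 5520 in NC and 33 of 5989 in HC had neither chain. Trac was found in 100% of those NC cells and 93.9% of those HC cells, and 2 of the NC cells had 3 or more B cell markers. These groups were chosen by their CD8 counts after the values were seen.

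Of the 7 genes of the receptor complex, 5 were lower in HC, by less than Cd8a, and the other two were level. Their median log2 ratio of HC over NC was -0.15, and 0 of 7 were past 1.5-fold. Among all 8704 genes, 1.47% passed 1.5-fold towards NC and 1.93% towards HC, so 0 in lists this short is near those shares. Over all 8704 genes, 3812 lay above and 4892 below 0. Trac was lowest at -0.29, followed by Trbc2 at -0.25, Cd3d at -0.17, Cd3e at -0.15 and Trbc1 at -0.09. Cd3g was at -0.0044 (-0.02 to 0.01) and Cd247, the zeta chain, at -0.00015 (-0.04 to 0.04). Of 15 genes of proximal signalling, 13 lay below 0 and 0 passed 1.5-fold, with a median of -0.18. Cd5, an inhibitory surface receptor (213 CPM in NC and 155 CPM in HC), and its relative Cd6 were at -0.46 and -0.44, and the kinase Fyn at -0.39. The phosphatase Ptpn6 was at -0.35. The class I ligands that CD8 binds had a median of -0.09 over 5 genes, with B2m at -0.25, H2-T23 at -0.29 and H2-K1 at -0.09. H2-Q7, a non-classical class I gene of a family with near-identical copies, was at 0.31.

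Factors known to act on the Cd8 genes showed no common direction. Of 20 with at least 5 CPM in either library, 13 lay above and 7 below 0, with a median of 0.02, against 3812 above and 4892 below among all 8704 genes. Of the 20, 1 was past 1.5-fold towards NC, where 1.47% of all genes were. That was Tox, which CD8 T cells use in development and in exhaustion, with 22.6 CPM in the NC library and 13.2 in the HC library, a log2 ratio of -0.78. Myb was at -0.43. Runx3, which keeps Cd8 genes on and Cd4 off in killer cells, was instead higher in HC, with 218 CPM in the NC library and 281 in the HC library, a log2 ratio of 0.37. Zbtb7b, which encodes the helper lineage factor ThPOK, was at 3.90 and 5.44 CPM, a log2 ratio of 0.48. The 3 remaining lists cover division, low oxygen and cytotoxic function. They include Mki67, Bnip3 and Gzmb and were chosen with earlier results of these libraries known, so their counts are only a description. Of the genes of division, 5 of 5 lay above 0 (median 0.44). Of the low-oxygen genes, 5 of 5 were at least 1.5-fold higher in HC (median 1.37), where 1.93% of all 8704 genes were. Of 6 cytotoxic genes 2 lay above and 4 below 0, with a median of -0.13. Gzma at 1.56 and Gzmb at 0.76 were past 1.5-fold, while the pore former Prf1 was at -0.52, Serpinb9 at -0.32, Nkg7 at -0.22 and Gzmc at -0.04 (-0.18 to 0.10).

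The genes most like each chain were sought over the 14 classes of library, Mki67, Gzmb and Bnip3 that held at least 50 cells, by Pearson's r of log2 CPM among 2430 genes. Nearest to Cd8a were Rasa1 (r = 0.89), Id3 (0.88), Sh2d2a (0.88), Shisa5 (0.88) and Il2rg (0.87). All 5 were lower in HC, with log2 ratios from -0.71 to -0.36, and within the NC classes r for Id3, Shisa5 and Il2rg was -0.25, -0.06 and -0.05. Nearest to Cd8b1 were Ms4a6b, Akirin1 and Arhgdib (each 0.92), Supt4a (0.91) and Traf3ip3 (0.90). Their r was 0.86 or above within NC and 0.84 or above within HC. These genes were picked by r over the same classes, so high values within each library are in part built in. The NC values also rest on fewer classes than the HC values. The chains themselves gave r = 0.67 over all classes, 0.25 within NC and 0.63 within HC. Classes of a library share its preparation and differ in depth, so these values describe likeness in level alone.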

How the data were processed

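Per the file headers, Cell Ranger 6.1.2 made the deposited matrices of UMI counts per gene and barcode, which are not normalized. The submitters' processing notes list the build mm10 and, without a role, Seurat 3.2.3 and Cell Ranger 5.0.0. The annotation release was not given in the sources used here. The libraries used the 10x 3′ v3.1 kit, per the labels' protocols.

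Cells were kept at 500 or more genes, 1000 or more UMIs and at most 10% mitochondrially encoded UMIs, leaving 115789139 NC and 114430972 HC UMIs, so that a count of 0 allows 0.0259 and 0.0262 CPM (3 counts). No doublet caller was run. CPM carry exact Poisson intervals, shares exact binomial (Clopper-Pearson) intervals, log2 ratios exact binomial intervals, and the difference in alpha-to-beta ratio between libraries an exact conditional one. Other differences of that ratio carry intervals of the log odds. Thinning drew UMIs without replacement. Genes with at least 5 CPM on either side were counted against a 1.5-fold ratio, and no test was made. Named genes were the 2 chains, the 3 marker genes, from each list at most 4 genes, those farthest from 0 in log2 ratio, and the 5 genes most like each chain among those with at least 50 CPM. For likeness, mitochondrial, ribosomal protein, predicted and receptor segment genes were left out. The chains, lists and markers were chosen with earlier results of these data known. On simulated counts for HC over NC, 100% of 80 genes altered 2-fold and 98.8% of 80 altered 4-fold were called, and 37.5% of 40 altered exactly 1.5-fold. Of 8395 unaltered genes 0 were called. Both simulated libraries were drawn around 1 shared profile with counting error alone. The simulation therefore cannot say how often variation between libraries would give a call.

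Alternatives to scaling, cell weights, depth, filters and mix of cells were run, and scaling alone used edgeR 4.0.16 (TMM) and DESeq2 1.42.0 (size factors). Positions came from GENCODE vM21 by identifier (32158 of 32285 matched) and the promoter from RefSeq. Of the chains, 1 had a promoter entry. Python 3.11.15, numpy 2.4.6, scipy 1.17.1, pandas 2.3.3, matplotlib 3.10.9 and R 4.3.3 were used.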

Additional observations from a re-analysis of the deposited data

Results flagged for a closer look

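Barcodes that the cell filter left out, 1157 in NC and 1878 in HC with medians of 916 and 826 UMIs, also carried CD8 transcripts. In NC they held 325 CPM of Cd8a and 429 CPM of Cd8b1, and in HC 220 and 412 CPM, far above the level that a count of 0 allows. Their alpha-to-beta ratio was 0.758 in NC (0.675 to 0.850) and 0.533 in HC (0.480 to 0.593), above that of the kept cells in both libraries.

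In cells thinned to 2000 UMIs, 2 contrasts of Cd8a had opposite signs in the libraries. With over without Gzmb its log2 ratio was 0.05 in NC, with an interval that held 0, and -0.15 in HC. With over without Bnip3 it was -0.11 in NC and 0.01 in HC, and both intervals held 0. The opposite signs did not last in other counts. With Gzmb both libraries were below 0 at 4000 UMIs (-0.0095 and -0.09) and without thinning (-0.034 and -0.13). With Bnip3 both were below 0 without thinning (-0.09 and -0.11), and at 4000 UMIs the signs were swapped (0.04 in NC and -0.07 in HC). The difference between the libraries was not tested.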

How the results depend on the processing

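Cd8a, Cd8b1 and their ratio stayed lower in HC under all alternatives run, 15 for each chain and 12 for the ratio. The log2 ratio of Cd8a (-0.54) left its counting interval with each cell weighted alike (-0.51), cells thinned to 2000 UMIs (-0.51), the stricter cell filter (-0.57), only cells without Gzmb (-0.49), the same mix of classes (-0.48) and the same mix of depth bins (-0.51), the last chosen after seeing the data. In the first 3 of these settings Cd8b1 (-0.10) was at -0.12, -0.13 and -0.13, without the deepest 5% of cells at -0.12, without Gzmb at -0.058 and with the same mix of classes at -0.077. The log2 difference in the ratio (-0.43) was -0.38 with cells weighted alike and when thinned, -0.41 with the same mix of classes and -0.40 with that of depth bins. Of genes past 1.5-fold (168 in HC, 128 in NC), 69 and 56 were left at a floor of 20 CPM, and 1894 and 1367 were counted with 3 UMIs as the only floor. Without thinning, the log2 ratios with over without Mki67 were -0.26 in NC and -0.28 in HC for Cd8a and -0.43 and -0.36 for Cd8b1, and at 4000 UMIs the NC values were -0.25 and -0.32. Those with over without Gzmb were -0.034 for Cd8a in NC, which changed sign, and -0.15 and -0.26 for Cd8b1 in NC and HC. That of Cd8b1 with Bnip3 in NC was -0.26. Both class and depth move in unthinned counts, and the cause was not tested. At 4000 UMIs, Cd8a with Gzmb in NC was at -0.01 and with Bnip3 at 0.04 in NC and -0.07 in HC, signs opposite to those at 2000 UMIs with intervals that held 0. Without thinning, Cd8a with Bnip3 in HC was at -0.11 (-0.15 to -0.07). No paired analysis was possible because there was 1 library per group and the labels give no replicate numbers.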
